A study of Caenorhabditis elegans with 2 samples.

Results

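The widest binding intervals of SET-16 in L4 larvae of Caenorhabditis elegans were 550 regions of 482 bp or more, out of 5483 distinct peak intervals (10.03%). They were chosen by width alone, as the intervals at or above the 90th percentile of width in the conservative whole-series peak list, so their width is given as a description and supports nothing. The remaining 4933 intervals, up to 481 bp wide, are called narrower here. The data are chromatin immunoprecipitation followed by sequencing (ChIP-seq) from whole larvae, pulled down with an antibody against GFP. All animals were of strain RW12223, in which CRISPR had put TY1, EGFP and 3xFLAG tags onto set-16 at its own locus on chromosome III, and were collected as L4 larvae at 48 hours, grown from L1 larvae starved after bleaching. There was 1 group with 2 biological replicates, each with its own peak list. Whole animals mix all tissues, so a peak cannot be assigned to a cell type. Untagged animals and the control experiment named in the labels were not analysed here.

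SET-16 is related to mammalian MLL3 and MLL4, enzymes that methylate lysine 4 of histone H3 within COMPASS-like complexes. In mammals these enzymes are known from enhancers and other regulatory elements. In worms SET-16 is known for limiting Ras signalling during vulval development. Cuticle collagens, which recur below, are short secreted proteins built from Gly-X-Y repeats that form the worm's exoskeleton, and they are made by the epidermis in a new round at each moult.

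The sequences below show the DNA at the highest summits of wide intervals of each kind. A summit is the position of greatest signal within a peak. Each stretch is 200 bp of the RefSeq sequence of WBcel235 (ce11) around the highest summit, written 5′ to 3′ on the strand of the host gene, with every CCAGGA or TCCTGG in capitals. The first group holds 3 of the 5 widest intervals hosted by cuticle collagen genes, which are col-102 (chrIV:605535-605734, plus strand), col-85 (chrII:12494071-12494270, minus strand) and col-103 (chrIV:762869-763068, minus strand). The second holds the widest mostly coding intervals in other genes, epic-2 (chrIV:1722605-1722804, plus strand) and Y39B6A.1 (chrV:19202918-19203117, minus strand). The others are the widest mostly intronic interval, in Y39E4B.13 (chrIII:13092478-13092677, plus strand), the widest in a noncoding gene, the pseudogene WBGene00194768 (chrV:14743547-14743746, plus strand) and the intergenic interval of highest signal (chrII:2974075-2974274, plus strand).
col-102: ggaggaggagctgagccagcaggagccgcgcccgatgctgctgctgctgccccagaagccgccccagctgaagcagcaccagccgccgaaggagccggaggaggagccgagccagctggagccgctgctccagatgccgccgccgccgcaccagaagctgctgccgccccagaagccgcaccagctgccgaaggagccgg
col-85: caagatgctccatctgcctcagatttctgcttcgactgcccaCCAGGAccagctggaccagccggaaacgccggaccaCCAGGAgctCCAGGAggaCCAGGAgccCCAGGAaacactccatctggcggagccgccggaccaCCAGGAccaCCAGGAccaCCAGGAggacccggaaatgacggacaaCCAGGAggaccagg
col-103: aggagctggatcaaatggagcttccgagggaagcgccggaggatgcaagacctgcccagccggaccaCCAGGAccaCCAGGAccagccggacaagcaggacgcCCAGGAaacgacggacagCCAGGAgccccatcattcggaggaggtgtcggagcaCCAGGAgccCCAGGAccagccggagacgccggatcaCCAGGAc
epic-2: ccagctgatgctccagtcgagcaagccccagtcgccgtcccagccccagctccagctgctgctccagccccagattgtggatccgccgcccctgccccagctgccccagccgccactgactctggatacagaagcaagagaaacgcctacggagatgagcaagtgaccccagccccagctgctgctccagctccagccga
Y39B6A.1: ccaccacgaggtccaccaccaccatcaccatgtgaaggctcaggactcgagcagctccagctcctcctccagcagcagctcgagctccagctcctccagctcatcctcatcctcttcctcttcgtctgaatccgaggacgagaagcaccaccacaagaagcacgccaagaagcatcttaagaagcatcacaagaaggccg
Y39E4B.13: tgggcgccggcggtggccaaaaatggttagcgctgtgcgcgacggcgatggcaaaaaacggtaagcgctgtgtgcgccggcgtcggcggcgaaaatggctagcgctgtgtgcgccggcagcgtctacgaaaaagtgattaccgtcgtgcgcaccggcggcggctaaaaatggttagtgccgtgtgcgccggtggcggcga
WBGene00194768: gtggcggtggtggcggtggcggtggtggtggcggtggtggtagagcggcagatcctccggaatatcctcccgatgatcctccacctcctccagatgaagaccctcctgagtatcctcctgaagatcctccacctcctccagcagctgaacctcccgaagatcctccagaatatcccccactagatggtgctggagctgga
intergenic interval: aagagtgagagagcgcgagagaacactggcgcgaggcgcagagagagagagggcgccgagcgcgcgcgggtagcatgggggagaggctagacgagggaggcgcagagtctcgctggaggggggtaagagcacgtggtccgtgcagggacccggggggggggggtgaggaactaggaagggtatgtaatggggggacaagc
GC content in these stretches ran from 57.5% in Y39B6A.1 to 73% in col-102. CCAGGA occurred 9 times in the col-85 stretch and 7 times in that of col-103, and in none of the other 6.

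Widths were not spread evenly. The commonest width, 444 bp, was shared by 1915 intervals (34.9%), all in the narrower set, and 2887 intervals were narrower than that. Only 131 lay above 444 bp and below the limit. The wide intervals had a median width of 621 bp and reached 2209 bp, against a median of 371 bp in the narrower set. Of the wide intervals, 33 exceeded 1000 bp, and together they covered 374788 bases, or 0.374% of the genome. The intervals just inside the limit were 482, 482 and 483 bp wide, at the microRNA gene cel-mir-80, in T18D3.9 and in unc-2, which encodes a neuronal calcium channel. Just outside were 4 intervals of 481 bp, and the 3 of highest signal lay in intergenic DNA on chromosome II, in Y39A1A.9 and in cab-1.

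**Figure D1:**
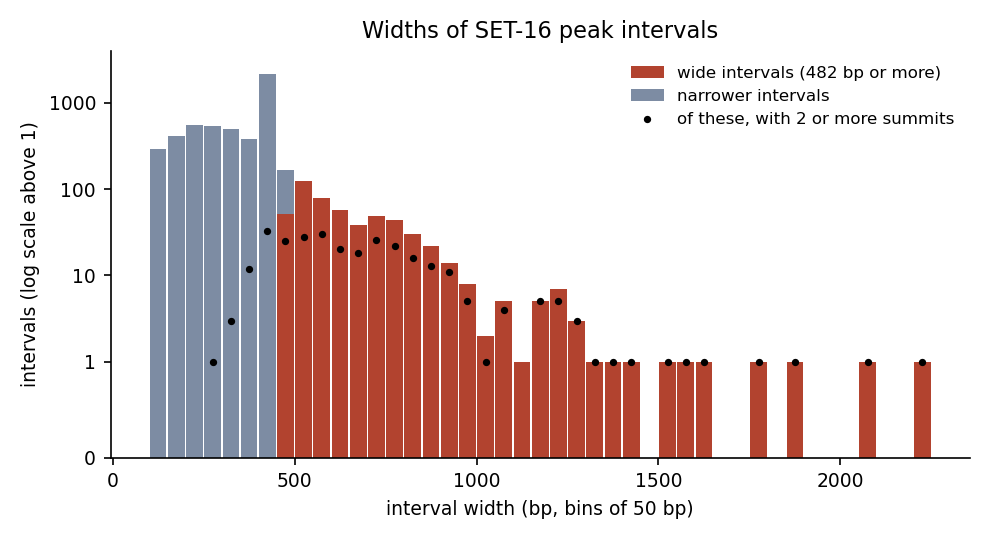
Number of distinct intervals (vertical axis, log scale above 1) by width in bins of 50 bp (horizontal axis). Red bars are the 550 wide intervals and grey bars the 4933 narrower ones, stacked where a bin holds both, and dots give the number with 2 or more summits. Grey bars peak in the bin that holds 444 bp, and the red tail reaches 2209 bp.

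Many wide intervals carried more than 1 summit. Counts were 324 with 1 summit, 207 with 2, 17 with 3 and 2 with 4. Thus 226 of 550 (41.1%, 95% exact interval 36.9 to 45.3) had at least 2, against 65 of 4933 narrower intervals (1.32%, interval 1.02 to 1.68) and 5.31% of all intervals. A longer interval has more room for summits, so this difference follows the rule and was not tested. Neighbouring summits of wide intervals lay a median of 206 bp apart, and between 199 and 994 bp. The wide intervals with several summits were wider than those with 1 (median 715.5 against 568.5 bp) and had a lower median signal (623 against 940). Signal is the value the authors' peak caller gave each peak, on a scale not given in the sources used here, and is compared only within a list. The intervals with 4 summits lay in Y39B6A.1 and in ego-2, a gene that promotes Notch signalling in the germline.

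The 10 widest intervals were mostly exonic. The widest spanned 2209 bp of chromosome IV (1720877 to 1723085) and 96.2% of the gene epic-2, with 3 summits, a signal of 1490 and 90.7% coding bases. Its peak was 2246 bp wide in replicate 1 and 2105 bp in replicate 2, with signals of 810 and 670. In both libraries the peak thus took in nearly the whole gene. The next covered 2067 bp and 79.7% of Y39B6A.1 on chromosome V (19201188 to 19203254), with a signal of 510. There replicate 1 had a single peak of 2129 bp, while replicate 2 had 2 peaks, of which the one with most overlap was 400 bp wide. The third covered 1853 bp and 69.0% of ZK84.1 on chromosome II (6021381 to 6023233), with peaks of 1847 bp in replicate 1 and 928 bp in replicate 2.

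Of the other 7, 5 covered part of a larger gene and had at least 95.5% coding bases. In ego-2 the interval of 1773 bp had peaks of 1774 bp in replicate 1 and 323 bp in replicate 2. In sea-2, a zinc finger gene of the X-to-autosome sex determination signal, an interval of 1643 bp had peaks of 2265 and 363 bp in replicates 1 and 2. In dpy-21, which encodes the histone demethylase of the dosage compensation complex, 1440 bp met peaks of 1504 bp in replicate 1 and 940 bp in replicate 2. In rsr-1, an SR-related splicing factor gene, 1374 bp met peaks of 1406 bp and 1203 bp, in the same order. In npp-11, which encodes a nucleoporin, 1332 bp met peaks of 1385 bp and 337 bp. The other two had little coding sequence. The interval of 1592 bp on chromosome V (14742715 to 14744306) lay wholly in the pseudogene WBGene00194768, with peaks of 1615 and 1333 bp in replicates 1 and 2. That of 1532 bp on chromosome III (13091502 to 13093033) was 98.04% intron of Y39E4B.13, with peaks of 1544 and 582 bp. At 5 of these 10 intervals the replicate 2 peak was under 600 bp wide, while every replicate 1 peak was 1385 bp or wider.

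Nearly every wide interval was called in each replicate. A thresholded peak overlapped 549 of the 550 in replicate 1 and 545 in replicate 2, and 544 (98.9%, 95% exact interval 97.6 to 99.6) were overlapped in both. In the narrower set 2738 of 4933 (55.5%, interval 54.1 to 56.9) were called in both, and 59.9% of all intervals were. The conservative list was made from the same libraries, so this is no independent check. Wide intervals also had higher signal, with a median of 813 against 157. Over all 5483 intervals, however, width and signal had a Spearman rho of -0.013, given as a description. The gap in replicate support depended on signal. Between 400 and 800, 168 of 168 wide and 463 of 466 narrower intervals (99.4%) were called in both, and between 200 and 400, 80 of 84 (95.2%) and 1147 of 1250 (91.8%). Between 100 and 200 the counts were 6 of 8 wide (75%) and 958 of 2276 narrower intervals (42.1%), and below 100 they were 7 of 7 and 100 of 871 (11.5%), with few wide intervals in either band. An overlap of 1 bp is enough, so the peak of a neighbouring interval can count as support. In the ranked replicate lists, which are not thresholded, 550 of 550 wide and 98.7% of narrower intervals had a peak in both.

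The 6 wide intervals that lacked a thresholded peak in a replicate had signals from 153 to 284. Of these, 5, including noa-1 on chromosome II (760 bp) and emb-9 (528 bp), had none in replicate 2. The other, at the noncoding RNA gene F52D10.12 on chromosome X, had none in replicate 1 and had the lowest GC content of all wide intervals, 42.6%.

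Width itself differed between the libraries. The peak in replicate 1 had a median width of 640 bp and that in replicate 2 of 424 bp. Replicate 1 was the wider in 531 of 544 intervals, with a median ratio of 1.42. Each list had its own commonest width, 476 bp in replicate 1 (1968 of 5486 intervals) and 424 bp in replicate 2 (2358 of 4246). The replicate 2 median is thus that list's commonest width, and the ratio partly reflects these list-specific widths. In replicate 1, 529 wide intervals (96.2%) had a peak above the commonest width, against 3.10% of narrower intervals. In replicate 2, 250 did (45.5%), against 1 narrower interval (0.0203%). Both replicates did so at 246 wide intervals (44.7%, 95% exact interval 40.5 to 48.99) and at 0 of 4933 narrower intervals, and at 4.49% of all intervals. Conversely, 534 of the 686 replicate 1 intervals above that list's commonest width (77.8%) overlapped a wide interval, as did 262 of 263 in replicate 2 (99.6%). Across the 544 intervals, widths in the replicates had a Spearman rho of 0.48 and signals of 0.85, given as a description, since these regions share both libraries and their base composition. Read depth is unknown, so its part in the difference in width was not tested.

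**Figure D2:**
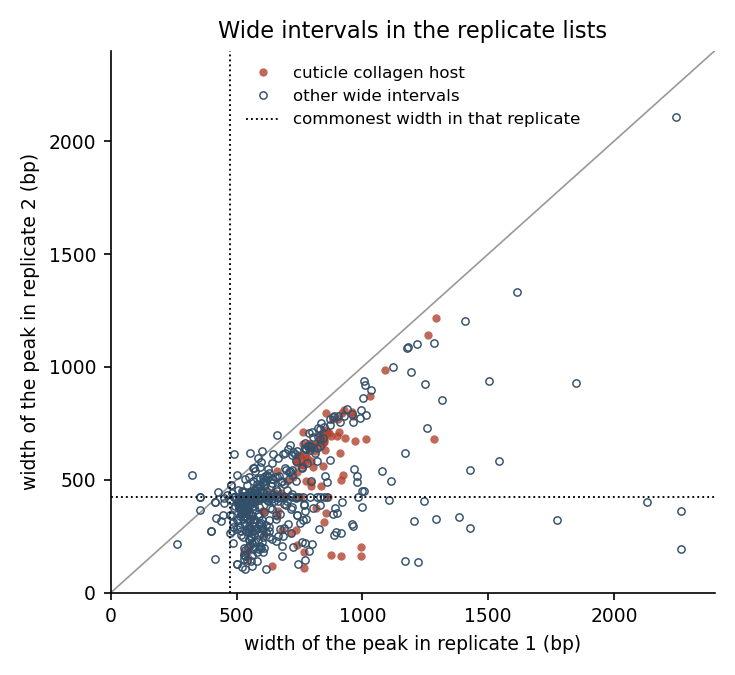
Width of the replicate 1 peak (horizontal axis, bp) and of the replicate 2 peak (vertical axis, bp) with most overlap at each of 544 wide intervals called in both. Filled points have a cuticle collagen host, the grey line marks equal width, and dotted lines mark the commonest width of each list (476 and 424 bp). Most points, 531, lie below the line of equal width, and a group in the lower right is wide in replicate 1 only.

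The bases of wide intervals were more often coding than those of narrower intervals. Coding exons made up 54.8% of wide-interval bases, 39.3% of narrower-interval bases and 24.6% of the genome. Introns made up 20.6%, 25.5% and 33.1% in the same order of sets, and intergenic DNA 15.6%, 25.9% and 33.3%. Noncoding genes held 5.38% of wide and 5.39% of narrower bases. By highest summit, 307 wide intervals (55.8%, 95% exact interval 51.6 to 60.02) and 2140 narrower ones (43.4%, interval 41.99 to 44.8) lay in a coding exon. The difference was not tested. Coding DNA of this species is richer in GC than the rest, and GC content also differed between the sets, so the 2 cannot be told apart here.

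**Figure D3:**
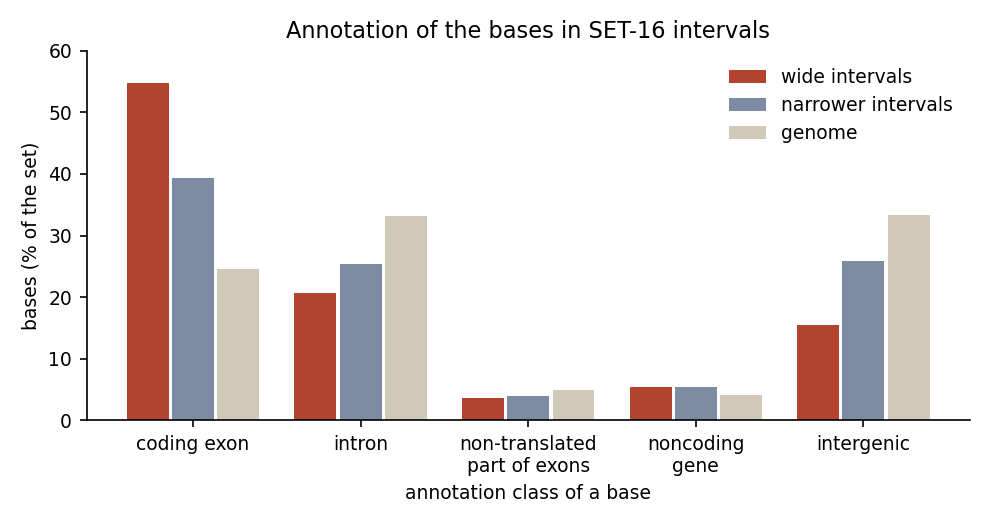
Share of bases (vertical axis, %) in each annotation class (horizontal axis), with bars for wide intervals, narrower intervals and the genome. Coding exons hold 54.8% of wide-interval bases, 39.3% of narrower-interval bases and 24.6% of the genome.

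By highest summit, wide intervals did not lie at gene starts more often than narrower ones. The highest summit lay from 1000 bp upstream to 200 bp downstream of a protein-coding gene start in 103 of 550 (18.7%, 95% exact interval 15.6 to 22.2), against 1138 of 4933 narrower intervals (23.1%, interval 21.9 to 24.3). Counting any overlap with that window turned the order, to 34.5% and 28.7%, and wider intervals reach more windows. Among wide intervals the share was 25.3% for those with 1 summit and 9.29% for those with several. Because many worm transcripts are trans-spliced, an annotated start need not be the site of initiation. The middle of the autosomes, from 33.3% to 66.7% of chromosome length, held 97 wide intervals (17.6%) and 13.8% of narrower ones, and chromosome X held 15.8% and 16.6%. A near-identical copy elsewhere in the genome, which makes read placement uncertain, was found for 41 wide intervals (7.45%) and 10.5% of narrower ones.

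Wide intervals lay in long GC-rich stretches. Their median GC content was 55.3%, against 50.7% in narrower intervals, and within 100 bp of the highest summit 60.7% against 54.2%. Of intervals with under 40% GC, 0 of 155 were wide, against 2.97% of those at 45 to 50%, 24.7% of those at 55 to 60% and 19.2% of those at 60% or more (24 of 125). Median width over all intervals went the other way. It was 444 bp under 40% and at 45 to 50%, 277 bp at 55 to 60% and 170 bp at 60% or more. GC content fell at the interval edge in both sets. Averaged over both edges, it was 58.8% at 175 bp inside, 42.4% at 25 bp inside and 38.4% at 475 bp outside in wide intervals. In the 2261 narrower intervals of at least 400 bp, which are long enough for these distances, it was 53.2%, 40.6% and 37.0%. Of these narrower intervals, 1915 shared the commonest width, 444 bp. Whether the caller set that width is unknown, so the edges of wide and narrower intervals may not be alike. The longest GC-rich stretch touching an interval, meaning consecutive windows of 200 bp with at least 50% GC, had a median length of 750 bp for wide and 350 bp for narrower intervals.

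A longer interval touches longer stretches by construction, and a longer stretch meets more intervals, so these figures are descriptions. Of 15562 such stretches of 200 to 399 bp, 17.9% met any interval and 0.276% met a wide one. Of 242 stretches of 1000 bp or more, 76.0% met any interval and 41.7% (95% exact interval 35.5 to 48.2) met a wide one. Among wide intervals, width had a Spearman rho of 0.55 with stretch length, 0.43 with GC content and 0.19 with signal, and among narrower ones 0.04 with stretch length. These correlations are across regions that share their libraries, and are descriptions only. The part of GC content in sequencing or in peak calling was not tested.

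**Figure D4:**
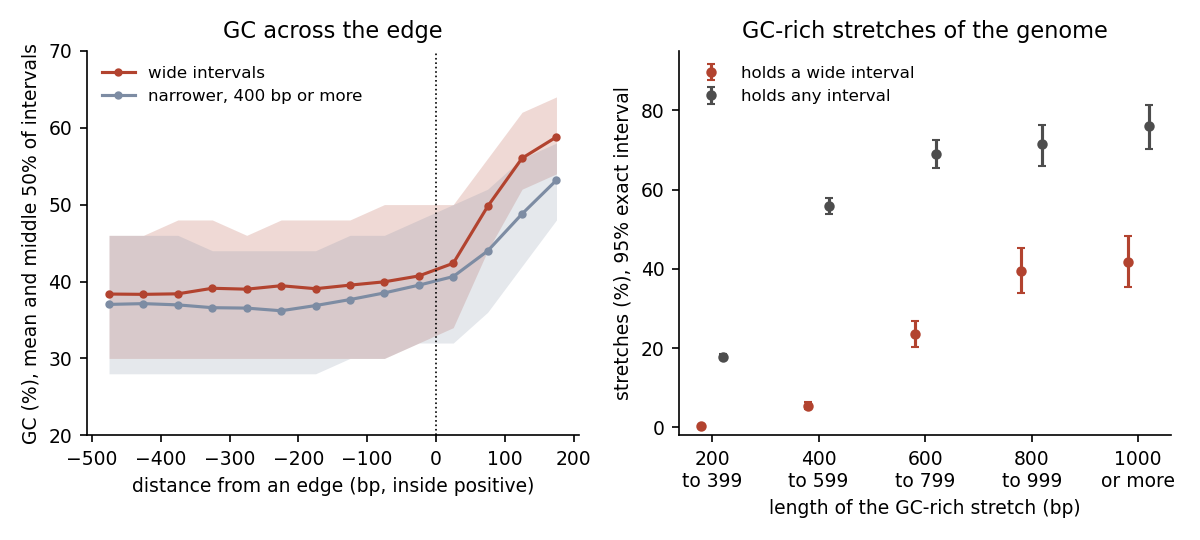
Left, mean GC content (%) in 50-bp bins by distance from an interval edge (bp, positive inside), over both edges, with bands for the middle 50% of values, for wide intervals and narrower ones of at least 400 bp. Right, share of GC-rich stretches (%) that meet a wide interval or any interval, by stretch length (bp), with 95% exact intervals. Wide intervals reach 58.8% GC inside the edge against 53.2% in narrower ones, and 41.7% of stretches of 1000 bp or more meet a wide interval.

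A protein-coding gene hosted 447 wide intervals (81.3%, 95% exact interval 77.8 to 84.4), against 71.2% of narrower ones. The host is the protein-coding gene with most bases inside the interval. No gene of any kind was found at 57 (10.4%, against 19.9%), and 46 overlapped noncoding genes only. The gene with most overlap was a noncoding RNA gene at 26, a pseudogene at 15 and a snoRNA gene at 3. It was a microRNA gene at 1 and a lincRNA gene at 1. The overlap could be short, as at cel-mir-80, where 7.88% of the interval was noncoding gene. The protein-coding hosts were 393 genes, 1.97% of the 19973 protein-coding genes. Of these, 148 also hosted a narrower interval, 40 hosted at least 2 wide ones and 9 at least 3. The interval covered at least 80% of the host in 38 wide (6.91%) and 24 narrower intervals (0.487%), and 20 of the 38 hosts were cuticle collagens. A wider interval meets more genes and covers more of each by construction, so these shares follow the rule and were not tested.

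Of the 19 gene lists, cuticle collagens had the highest share of wide hosts. Of 174 such genes, 101 hosted a wide interval (58.0%, 95% exact interval 50.3 to 65.5), 43 hosted narrower intervals only and 30 hosted none. Collagen genes are short, GC-rich and repetitive, and the list was chosen with results of these data known, so the share is a description. They held 103 of the 550 wide intervals. These had a median width of 767 bp against 588 bp in the other 447, a median signal of 991 against 735 and a median GC content of 57.1% against 54.7%. They covered a median of 65.8% of the gene, while the wide intervals of other coding hosts covered 10.05%. All 103 were called in both replicates, 71 had a peak above the commonest width in both, and 54 (52.4%) had several summits. Near-identical copies were found for 17 of them.

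The widest collagen intervals took in most of a gene. The col-102 interval spanned 1278 bp of chromosome IV (604701 to 605978) and 82.7% of the gene, with peaks of 1294 and 1218 bp in replicates 1 and 2 and signals of 552 and 856. The neighbours col-51 and col-50 on chromosome I had intervals of 1261 and 1224 bp, covering 90.7% and 80.1% of the gene. At col-51 the peak was 1284 bp wide in replicate 1 and 681 bp in replicate 2, and at col-50 it was 1260 and 1141 bp. At col-85 the interval of 1165 bp covered 83.6% of the gene, with peaks of 1031 and 873 bp in replicates 1 and 2. Without the cuticle collagen intervals, coding exons made up 45.5% of wide-interval bases, which lay above the 39.3% of narrower intervals. Of the wide intervals left, 38.5% had several summits.

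The collagen intervals also shared their repeat. CCAGGA spells a codon of proline followed by one of glycine, and counted on both strands its density was 26.05 per kb in wide collagen intervals, 16.7 in narrower collagen intervals, 1.88 in the other wide ones and 0.571 in the other narrower ones. The genome had 0.292 per kb. Of the matches in wide collagen intervals, 1976 lay on the coding strand and 43 on the other, and 1942 of the 1974 within coding sequence (98.4%) began at codon position 1. A match lay within 100 bp of the highest summit in 94.2% of wide and 86.7% of narrower collagen intervals, in 16.6% of the other wide and 10.4% of the other narrower ones, and in 4.89% of all genome tiles of 200 bp. The same base recurred 9 bp later at a median of 46.7% of positions in both wide and narrower collagen intervals. It did so at 30.7% in the other wide intervals and 28.7% in the other narrower ones. GAGAGA, read on both strands, lay within 100 bp of the summit in 23.8% of wide and 24.9% of narrower intervals, against 9.95% of tiles. In mostly coding intervals without a host on the cuticle collagen list it did so in 8.33% of wide and 12.1% of narrower ones. In those intervals the shares for CCAGGA were 28.4% and 15.7%. They are not free of collagen genes, since let-2 and emb-9, collagen genes of the basement membrane, are not on that list. These matches describe the letters of the DNA and no factor's site.

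Of the 40 genes that hosted at least 2 wide intervals, those with the greatest summed width are described here. The polyglutamine gene pqn-41, which promotes a nonapoptotic cell death, held 5 wide intervals summing to 3698 bp and 7 narrower ones. The widest, of 1066 bp, had a signal of 403, while one of 768 bp had a signal of 3933, with 2156 in replicate 1 and 1799 in replicate 2. That one lay wholly in an intron. The type IV collagen gene let-2, which encodes a basement membrane chain, held 4 wide intervals of 889, 730, 723 and 621 bp, at least 93.1% coding. At these, replicate 1 peaks ran from 719 to 914 bp and replicate 2 peaks from 146 to 424 bp. The other type IV collagen gene, emb-9, hosted 1. The ground-like gene grl-25 held wide intervals of 1227 and 938 bp, with peaks of 1256 and 964 bp in replicate 1 and of 731 and 758 bp in replicate 2.

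The genes sea-2 and set-26 held 4 wide intervals each, and set-9, set-16 and zfp-1 held 3 each. The gene set-9 was named after its values were seen. The genes set-9 and set-26 are paralogs that encode SET-domain proteins which bind methylated histone H3, and 4 of their 7 wide intervals had a near-identical copy, so reads may be shared between them. The set-16 gene, which carries the tag, held intervals of 668, 523 and 491 bp on chromosome III with signals of 535, 733 and 295. The replicate 1 peaks there were 701, 554 and 530 bp wide, and the replicate 2 peaks 456, 325 and 148 bp. Only the first exceeded the median width of all wide intervals, 621 bp. Of the other 10 genes of the SET-16 and COMPASS list, 1 hosted narrower intervals only and 9 hosted none. In zfp-1, the gene of an AF10-like chromatin protein, 2 of the 3 wide intervals overlapped each other and had signals of 21.96 and 312. Overlapping wide intervals were counted singly, and 30 of the 550 overlapped another wide one.

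Heterotrimeric G protein signalling gave 9 of 55 genes with a wide interval (16.4%, 95% exact interval 7.77 to 28.8), against 1.97% of all protein-coding genes. The list was chosen with results of these data known, so this is a description. A longer gene has more room for an interval, and gene length was not matched in this or the other lists. The interval of 985 bp in egl-30, the Gq alpha gene, lay on chromosome I (1836382 to 1837366) and had a signal of 2595, with peaks of 1003 and 862 bp in replicates 1 and 2. The cyclic nucleotide phosphodiesterase gene pde-6 hosted 3 wide intervals. The widest was 882 bp with a signal of 3066 and peaks of 912 and 756 bp. It covered 3.89% of the gene, and its highest summit lay in intergenic DNA within a gene start window. The Gs alpha gene gsa-1 hosted 3, of 874, 839 and 675 bp. The one of 839 bp was 70.1% intergenic, and its highest summit lay in intergenic DNA within a gene start window. The G beta gene gpb-1 had one of 817 bp. Of the 9 widest intervals of these genes, 5 had no coding base.

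Each of the other lists had at most 4 wide hosts, so their shares are imprecise, and they are set here beside the 1.97% of all protein-coding genes. The basement membrane list gave 2 of 14 (14.3%, 95% exact interval 1.78 to 42.8). The endoplasmic reticulum chaperone list gave 2 of 17 (11.8%, interval 1.46 to 36.4), hsp-3 (539 bp) and the disulfide isomerase gene pdi-2 (508 bp). Glutamine and asparagine rich pqn genes gave 4 of 56 (7.14%, interval 1.98 to 17.3). The intervals of the first 2 of these take in 1.97%, as do those of muscle genes, 2 of 36 (5.56%, vab-10 and the paramyosin gene unc-15), synaptic genes, 1 of 26 (3.85%, unc-2), histones, 2 of 72 (2.78%), C-type lectins, 4 of 240 (1.67%), ribosomal proteins, 1 of 80 (1.25%, rla-1), and vitellogenins, 1 of 6 (16.7%, vit-2). The same was true of the homeobox list at 1.14% (unc-62), the Ras list at 4.17% (mek-2) and the Wnt list at 3.85% (lit-1), with 1 gene each, and of nuclear hormone receptors, 2 of 269 (0.743%). Chemoreceptors gave 3 of 1309 (0.229%, interval 0.0473 to 0.668). Overlap with a host could be short. The C-type lectin genes clec-101, clec-122 and clec-72 had 0.478%, 2.39% and 0.393% of the gene covered, and clec-172 had 43.1%. Narrower intervals only were hosted by 11.3% of all protein-coding genes. That share was 66.7% of vitellogenins, 61.1% of muscle genes, 42.3% of synaptic genes and 38.8% of ribosomal protein genes, and 6.69% of nuclear hormone receptors and 2.60% of chemoreceptors. F-box genes gave 0 of 322, which allows a share of up to 1.14%, and innexins 0 of 25, which allows up to 13.7%. Those limits are the upper ends of exact 95% intervals and cover counting error only.

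**Figure D5:**
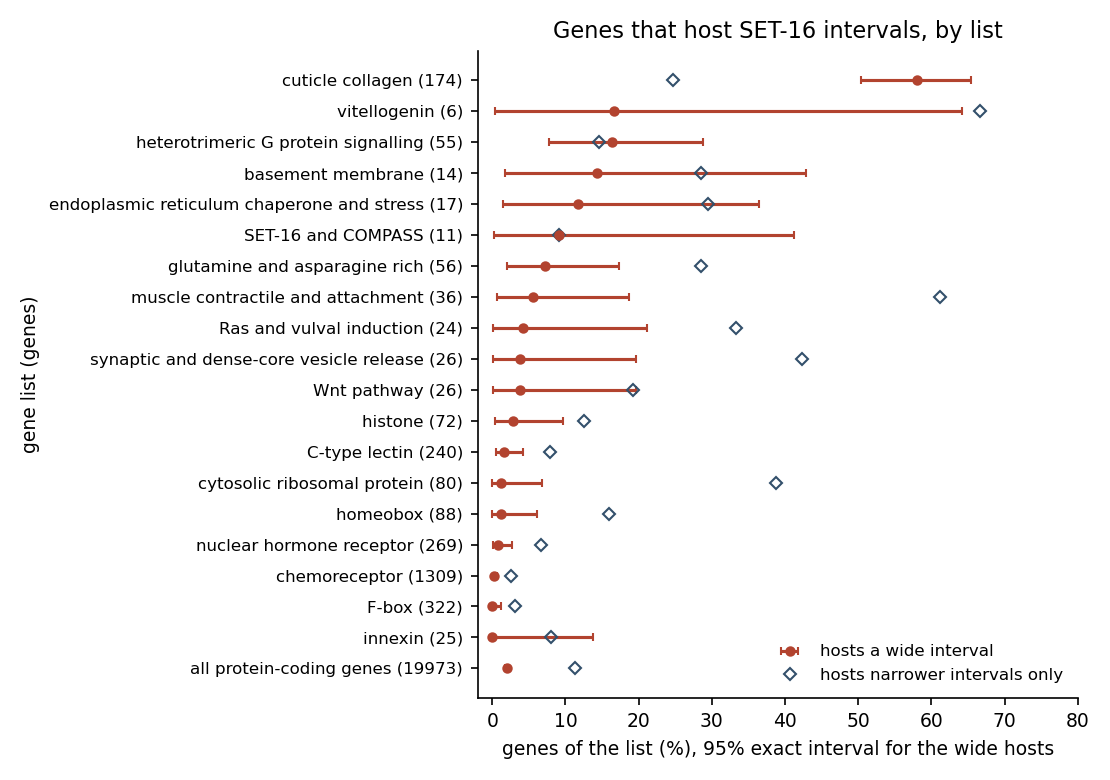
Share of genes (horizontal axis, %) that host a wide interval (filled points, with 95% exact intervals) or only narrower intervals (open diamonds), by gene list (vertical axis, with the number of genes). Cuticle collagens lie at 58.0%, and all protein-coding genes at 1.97%.

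The wide intervals of highest signal were not the widest. The highest, 8482, belonged to an intergenic interval of 792 bp on chromosome II (2973739 to 2974530) with 1 summit, where the peak was 800 bp wide in replicate 1 and 710 bp in replicate 2, with signals of 4849 and 3659. The next 4 ran from 543 to 1009 bp wide. At the low end, 7 wide intervals had signals under 100 and each was overlapped by a peak in both replicates. They included one in vit-2, a yolk protein gene, with a signal of 48.6. The replicate peaks there had signals of 61.5 and 221.5, and the other wide interval of vit-2 had a signal of 592. Whether such peaks belong to a stronger neighbour was not tested. The lowest GC contents among wide intervals, after that of F52D10.12, were 42.7% at tasp-1, 43.8% at F44E5.4, an Hsp70 family gene, 44% in intergenic DNA and 44.4% at W03C9.6, and 2 of these 4 had their highest summit in a gene start window.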

How the data were processed

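Peaks of GFP-tagged SET-16 were deposited on ce11 as lists for each of 2 replicates and for both together, with aligner and caller not given in the sources used here. The lists hold no read counts, so depth is unknown. Each deposited peak has an interval, a summit, a signal on an unstated scale set by the authors, and a deposited score, a scaled irreproducible discovery rate of at least 830 in the conservative list.

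Intervals were made distinct by position. Genes came from Ensembl release 115 and sequence from RefSeq WBcel235, and no peak lay past a chromosome end. A base in several classes counted as coding exon first, then as other exon, intron, noncoding gene and intergenic. Replicate support is an overlap of at least 1 bp, and the replicate peak described is the one with most overlap. Copies were found with blastn 2.17.0 (at least 95% identity over 50% of the interval). Scripts used Python 3.11.15, pandas 2.3.3 and numpy 2.4.6 and were tested on simulated data.

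Widths, summits, signals and replicate lists come from the calls that chose the members, so no test was run. Shares have exact 95% binomial (Clopper-Pearson) intervals, which cover counting error only. Neighbouring intervals are not independent. The members and gene lists were chosen with earlier results of these data known. Genes were named by rule: hosts of the 10 widest intervals and of the 5 with most summits, genes with 2 or more wide intervals by summed width, up to 4 members of each list, and intervals at the limit, of lowest GC content or without a replicate peak. The 5 intervals of highest signal were added after their values were seen.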

Additional observations from a re-analysis of the deposited data

How the results depend on the processing

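No paired analysis was possible because the series has a single group. Of 111 alternative values, 59 stayed within the interval of the reported value, or within 1.5 times a count, and 52 moved. For coding bases that interval treated the share as if counted over 550 intervals, so its width is only a rough guide. For median signal and GC it was a rank-based 95% interval of the median. Those intervals are not given above. The 80th percentile of width is the commonest width. It gave 2596 intervals and 1576 host genes, with 9.51% having several summits, a median signal of 115.1, 41.6% called in both replicates, 45.3% coding bases, a median GC content of 48.6% and 14.4% in autosome centres. The 95th percentile gave 277 intervals and 225 host genes, with 56.0% having several summits, a median signal of 934, 62.3% coding bases, 56.2% GC and 15.5% at gene starts. Keeping only peaks at or above the median signal gave the same counts and medians, 277, 225, 934 and 56.2%, with 62.6% coding bases and 15.5% at gene starts.

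With the second whole-series list 36.7% had several summits and GC was 54.8%. Merging overlapping intervals gave 67.1% with several summits, and merged regions join summits by construction. The merged regions had a signal of 592, 82.0% called in both and 54.6% GC. With 1 replicate list alone, counts of wide intervals ran from 549 to 2621, hosts from 397 to 1519, several summits from 4.31% to 46.6%, coding bases from 38.5% to 57.4%, GC from 48.8% to 54.8% and gene starts from 16.4% to 23.2%. The 2621 intervals come from replicate 2, whose 90th percentile is its commonest width. Its 263 intervals above that width had 191 hosts and 58.7% GC.

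Wide intervals with 1 summit had a signal of 940, 45.3% coding bases, 54.7% GC, 25.3% at gene starts and 48 collagen hosts. Both replicates supported 81.1% when peaks had to cover 50% of the interval, 94.4% with summits within 100 bp and 100% in ranked lists. The share at gene starts was 34.5% by any overlap and 37.6% with 2000 bp upstream and 500 bp downstream, and GC at summits was 60.7%. Without cuticle collagen hosts the signal was 735, coding bases 45.5% and GC 54.7%. The alternatives on collagen hosts, copies, replicate 2 widths and coding-base hosts were chosen after seeing the data. Collagen hosts ran from 75 to 118 under the other 11 alternatives. Except where stated, the cause was not tested. Depth is unknown, and its part in the widths was not tested.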
